A study of Mus musculus with 3 samples.

Results

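The NOTCH pathway and segmentation genes described here are 9 genes of the 32285 in the files, chosen by name: the ligand genes Dll1, Dll3 and Jag1, the receptor genes Notch1, Notch2 and Notch3, the modifier Lfng, and the targets Hes1 and Hes7. All 9 were found by symbol in the files, and all 9 had UMIs in each library. They were followed in single cells of untreated mouse embryos of the ARC strain during gastrulation, when epiblast cells pass through the primitive streak and become mesoderm and endoderm. There were 3 groups with 1 library each: whole embryos at embryonic day 7.0 (E7.0), whole embryos at E7.25, and the posterior region of embryos at E7.5. Each library was 1 droplet channel, and the number of embryos in it is not given in the sources used here. Stage and library cannot be told apart, and at E7.5 the dissected region cannot be told apart from either.

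NOTCH signalling works by contact. A Delta or Jagged ligand on 1 cell binds a NOTCH receptor on its neighbour, the receptor is cut, and its inner part enters the nucleus, where with the DNA-binding protein RBPJ it switches on targets such as the Hes repressors. In the presomitic mesoderm of the mouse, this pathway is part of the segmentation clock, in which Hes7 and Lfng are expressed in waves and the repressor Hes7 shuts off its own gene and that of Lfng. Dll1 is the activating ligand there, Dll3 acts inside the ligand-making cell as an inhibitor, Lfng adds sugars to the receptors, and the T-box factor Tbx6 is needed for paraxial mesoderm and acts on Dll1.

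Promoters of the 4 members with the strongest enrichment in Tbx6 positive cells, described further on, show which of the sequences bound by RBPJ and by Hes repressors stand next to their starts. The windows run from 250 bases before to 50 bases after a start of the RefSeq annotation on GRCm38.p6, given 5′ to 3′ on the gene's strand, and 8 of the 9 members had an entry. Capitals mark the RBPJ core TGGGAA and the N-box CACNAG on either strand, so that TTCCCA and CTNGTG are their reverse forms.
Hes7 at chr11:69120203-69120502, plus strand: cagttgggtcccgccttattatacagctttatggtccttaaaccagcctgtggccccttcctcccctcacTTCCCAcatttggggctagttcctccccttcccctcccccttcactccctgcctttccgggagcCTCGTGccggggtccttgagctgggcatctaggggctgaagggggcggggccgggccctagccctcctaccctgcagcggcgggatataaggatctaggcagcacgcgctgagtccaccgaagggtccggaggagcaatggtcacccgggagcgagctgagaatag
Lfng at chr5:140607091-140607390, plus strand: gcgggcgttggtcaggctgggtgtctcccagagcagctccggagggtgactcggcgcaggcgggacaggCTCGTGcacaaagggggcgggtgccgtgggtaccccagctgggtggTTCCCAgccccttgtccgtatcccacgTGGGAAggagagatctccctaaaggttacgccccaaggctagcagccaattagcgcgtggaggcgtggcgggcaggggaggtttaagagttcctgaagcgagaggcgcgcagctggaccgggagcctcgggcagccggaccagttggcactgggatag
Dll1 at chr17:15376883-15377182, minus strand: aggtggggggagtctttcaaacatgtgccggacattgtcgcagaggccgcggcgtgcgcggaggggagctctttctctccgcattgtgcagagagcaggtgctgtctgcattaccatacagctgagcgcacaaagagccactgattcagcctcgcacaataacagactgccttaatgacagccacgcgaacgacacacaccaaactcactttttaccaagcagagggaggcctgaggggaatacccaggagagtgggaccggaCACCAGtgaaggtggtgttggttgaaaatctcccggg
Dll3 at chr7:28301736-28302035, minus strand: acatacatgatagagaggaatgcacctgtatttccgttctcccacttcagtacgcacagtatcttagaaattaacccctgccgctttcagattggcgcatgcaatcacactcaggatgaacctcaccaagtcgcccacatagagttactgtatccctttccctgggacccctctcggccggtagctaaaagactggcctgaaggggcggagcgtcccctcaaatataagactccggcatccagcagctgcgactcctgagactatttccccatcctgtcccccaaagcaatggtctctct

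The Hes7 window held 1 RBPJ core and 1 N-box, and the Lfng window held 2 RBPJ cores and 1 N-box. The Dll1 window held 1 N-box and no RBPJ core, the window of a second Dll1 start held neither, and the Dll3 window held neither. Of the other windows, that of Notch1 held 3 N-boxes, of which 2 overlap on opposite strands, that of Notch2 held 1, that of Notch3 held 2 and that of Jag1 held none. No RBPJ core was seen in these 4. The T-box core AGGTGT was searched on both strands as well and was in none of the 9 member windows. Of the 32851 promoters in the table, 25.6% held the RBPJ core, 42.5% the N-box and 13.7% the T-box core. These matches describe letters in short windows and do not show binding.

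The gene bodies lie on GRCm38 at chr17:15367354-15376872 for Dll1, chr7:28293553-28302238 for Dll3, chr2:137081456-137116644 for Jag1 and chr5:140607320-140615545 for Lfng. Notch1 lies at chr2:26457903-26516663, Notch2 at chr3:98013527-98150361 and Notch3 at chr17:32120820-32166852. Hes1 lies at chr16:30064384-30067796 and Hes7 at chr11:69120404-69124055. The 3′ counting used here reads only the end of each transcript, so levels are compared between cells and not between genes.

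A cell was used if it had at least 1000 detected genes and no more than 10% of UMIs from mitochondrial genes, where a UMI (unique molecular identifier) marks 1 captured RNA molecule. This left 7941, 5194 and 8438 cells in the 3 libraries in order of stage, with a median of 11295, 8298 and 9254.5 UMIs per cell. Of the kept cells, 8 barcodes were shared by E7.25 and E7.0, 22 by E7.5 posterior and E7.25, and 14 by E7.5 posterior and E7.0. Clusters named from marker genes were of epiblast-like, streak-like, mesoderm-like, node-like and endoderm-like classes, with 110 and 315 trophoblast-like cells at E7.0 and E7.25. Most of the 24 clusters came mainly from a single library. Levels are given as CPM, the UMIs of a gene summed over cells and scaled to a common total, with exact 95% Poisson intervals, which cover counting error only and not the spread between embryos. With 1 library per group, no test between stages is possible.

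Across whole libraries, Dll1, Notch1 and Hes7 were highest at E7.5 posterior, Dll3 and Jag1 dipped at E7.25, and Hes1 was highest at E7.0. A member was compared by fold only when it reached 20 CPM in 1 of the libraries compared, and a change of 2-fold was counted. For E7.25 over E7.0, 2 members could be compared, and the count was 0 higher and 1 lower. The background over 5585 genes was 2.78% higher and 1.52% lower. For E7.5 posterior over E7.25, 5 members could be compared, and 2 were higher and 0 lower, against a background of 1.01% higher and 3.29% lower of 5625 genes. For E7.5 posterior over E7.0, 3 of 5 were higher and 1 lower, against 0.568% higher and 1.0% lower of 5283 genes. With TMM scaling, explained further on, 2 of 5 were higher in that last comparison, since Notch1 lies just past 2-fold. These members were chosen with earlier results of these data known, and the counts rest on single libraries.

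**Figure D1:**
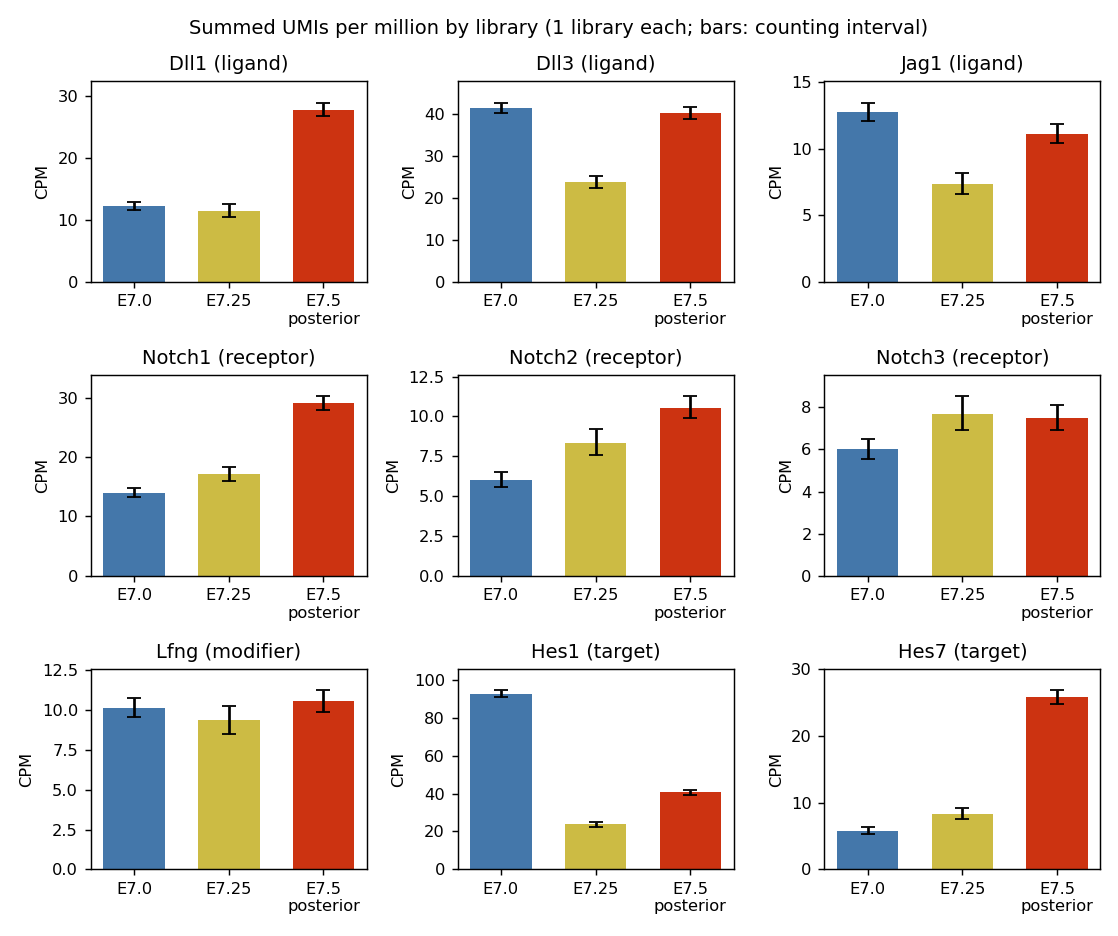
Summed level (CPM, vertical axis, from 0) of each of the 9 genes in the 3 libraries, from E7.0 on the left to E7.5 posterior on the right. Bars are the library values and error bars exact 95% counting intervals. Dll1, Notch1 and Hes7 stand highest at E7.5 posterior, at 27.8, 29.1 and 25.8 CPM, and Hes1 stands highest at E7.0, at 92.7 CPM.

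Among the ligands, Dll1 was at 12.2, 11.5 and 27.8 CPM in order of stage. The first pair of intervals overlapped, at 11.5 to 12.9 and 10.5 to 12.5 CPM, and the last stood apart at 26.7 to 28.9 CPM. The log2 ratio of E7.5 posterior over E7.25 was 1.28 (95% interval 1.14 to 1.41). Dll3, the ligand family member that acts within the cell, was at 41.5, 23.8 and 40.3 CPM in the same order. Its E7.0 and E7.5 posterior intervals overlapped and the E7.25 level lay below both. Jag1, a Jagged ligand, followed the same order of levels at 12.8, 7.32 and 11.1 CPM, and did not reach the 20 CPM needed for a call.

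The receptors differed in pattern. Notch1, the receptor used in the presomitic mesoderm, was at 14.0, 17.2 and 29.1 CPM in order of stage, and none of its 3 intervals overlapped. Its log2 ratio of E7.5 posterior over E7.0 was 1.06 (0.97 to 1.15). Notch2, a broadly expressed receptor, had the same order of levels, 6.04, 8.35 and 10.6 CPM. Notch3, a receptor best known from vascular smooth muscle, was at 6.02, 7.70 and 7.51 CPM, with the last pair of levels inside each other's intervals. Lfng, the glycosyltransferase, was at 10.1, 9.36 and 10.5 CPM, and its 3 intervals overlapped.

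The 2 targets had unlike patterns. Hes7, the clock repressor, was at 5.81, 8.29 and 25.8 CPM in order of stage, with a log2 ratio of E7.5 posterior over E7.0 of 2.15 (2.02 to 2.28). Hes1, a repressor that many signals control, was at 92.7, 23.8 and 40.6 CPM in the same order, so its lowest level was at E7.25. The log2 ratio of E7.25 over E7.0 was -1.96 (-2.05 to -1.87). In each of the 3 classes with 100 or more cells in every library, the E7.25 level of Hes1 was again the lowest. In definitive endoderm-like cells it was 182, 52.2 and 120 CPM, in epiblast-like cells 48.4, 14.9 and 21.7 CPM, and in visceral endoderm-like cells 71.8, 23.3 and 46.9 CPM. Different clusters held most epiblast-like cells of each library, and E7.25 also had visceral and definitive endoderm-like clusters of its own.

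The median log2 ratio of all genes compared was 0.12 for E7.25 over E7.0, -0.09 for E7.5 posterior over E7.25 and 0.01 for E7.5 posterior over E7.0. Scaling by trimmed means (TMM) in place of library totals shifted every ratio by -0.20, 0.12 and -0.08 in these comparisons. Under it the small log2 ratio of Lfng for E7.5 posterior over E7.0 changed sign from 0.05, so no direction is given for it. Dll1 for E7.25 over E7.0, at -0.09, changed sign, to 0.08, with visceral endoderm-like cells and trophoblast-like cells left out, and no direction is given for it either.

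Shares of cells with at least 1 UMI were taken after thinning each cell to 5000 UMIs, which left out 614, 509 and 774 shallower cells in order of stage. Hes7 UMIs were in 2.14%, 2.99% and 9.45% of cells (4.42%, 5.56% and 15.3% unthinned), against 0.162%, 1.29% and 0.984% of visceral endoderm-like cells, which should lack Hes7. Dll1 UMIs were in 5.80%, 4.74% and 11.5% of cells (12.4%, 7.93% and 17.7% unthinned), against 1.30%, 1.64% and 1.64% of visceral endoderm-like cells. Dll3 UMIs were in 17.2%, 9.61% and 16.1% of cells (30.1%, 14.6% and 25.7% unthinned), against 1.13%, 4.56% and 2.95% of visceral endoderm-like cells. Both shares of Dll1 and Hes7 were thus highest at E7.5 posterior, and the Dll3 share was lowest at E7.25. For the broadly expressed Hes1 and Notch2 the visceral endoderm-like cells are no background, since 26.7%, 10.8% and 22.6% of them held Hes1 UMIs. The median depth of visceral endoderm-like cells was 10190, 8704 and 7748.5 UMIs. The visceral endoderm-like cells of E7.25 with Dll3 or Hes7 UMIs lay mostly in 1 deep cluster of 247 cells. After thinning, Dll3 UMIs were in 15.5% and Hes7 UMIs in 4.603% of the cells of that cluster. In the other large cluster, of 707 cells, Dll3 UMIs were in 0.326% of cells. With predicted doublets removed before clustering, Dll3 UMIs were in 0.324% of the visceral endoderm-like cells of E7.25. Deep cells of E7.25 were then left in an extraembryonic mesoderm-like cluster, described further on.

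Cells were then split by Tbx6. Tbx6 positive cells held 1 or more Tbx6 UMIs. There were 764, 497 and 1427 in order of stage, or 9.62%, 9.57% and 16.9% of the kept cells, against 7177, 4697 and 7011 Tbx6 negative cells. After thinning, 4.07%, 5.70% and 10.6% of cells held Tbx6 UMIs, against 0.324%, 1.87% and 1.31% of visceral endoderm-like cells. At E7.0, nascent mesoderm-like cells made up 60.6% and streak-like cells 27.2% of Tbx6 positive cells. At E7.25, 11.9% were visceral endoderm-like, the class used above as background, and 10.1% epiblast-like. Another 70.2% were in a cluster called paraxial mesoderm-like. That name depends on the clustering. With predicted doublets removed, 1171 cells of E7.25 lay in an unnamed mesoderm cluster with 46.6 CPM of Tbx6, and at resolution 2 there was again no paraxial mesoderm-like class of 100 or more cells at E7.25. With the libraries clustered apart, 587 cells were nascent mesoderm-like, with 69.7 CPM of Tbx6, and 402 paraxial mesoderm-like, with 29.7 CPM. At E7.5 posterior, 47.9% lay in a mesoderm cluster led by Aldh1a2, Hoxb1 and T, 22.3% were paraxial mesoderm-like and 17.5% caudal epiblast-like.

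In Tbx6 positive cells, 5 of the 9 genes were far higher than in Tbx6 negative cells in every library: Hes7, Dll1, Lfng, Dll3 and Notch1. Jag1 rose less, Hes1 and Notch3 fell, and Notch2 was not called. The test was edgeR's quasi-likelihood test on the 6 sums of Tbx6 positive and Tbx6 negative cells, with library as a block and Benjamini-Hochberg adjustment over 14162 genes. Its replicates are the 3 libraries, which are different stages. The SE given below is the size of the log2 change over the square root of the test's F statistic. The fit had 2 residual degrees of freedom. This SE is not the spread between the library ratios, which for Dll1 ran from 1.53 to 2.42. At an adjusted p of 0.05, 6 members rose and 2 fell, against a background of 8.89% of all tested genes higher and 13.9% lower. The median log2 change of the members was 1.44, against 0.02 over all genes tested. With library totals in place of TMM, 27.4% of all calls were higher, against 39.1% with TMM, and the same number of members rose and fell.

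Tbx6 positive cells were deeper than Tbx6 negative cells, with medians of 14255.5, 9548 and 10128 UMIs against 11051, 8204 and 9098. Predicted doublets made up 12.4%, 5.84% and 13.0% of Tbx6 positive cells and 5.70%, 3.98% and 5.48% of Tbx6 negative cells. All 12 visceral endoderm markers had UMIs in both kinds of cells, and their summed level was 353 to 1503 CPM in Tbx6 positive cells and 1945 to 6414 CPM in Tbx6 negative cells. Of 11 trophoblast markers, 10 or more had UMIs, at 26.2 to 153 CPM in Tbx6 positive cells and 90.9 to 441 CPM in Tbx6 negative cells. With predicted doublets removed, or with only visceral endoderm-like cells and trophoblast-like cells left out, 6 members were again called higher and 2 lower. With all cells thinned to the same depth, 5 were higher and 1 lower, and without the library block Lfng and Dll3 were the 2 members called. In bulk sums of this kind, more cells of a type and more RNA per cell cannot be told apart.

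**Figure D2:**
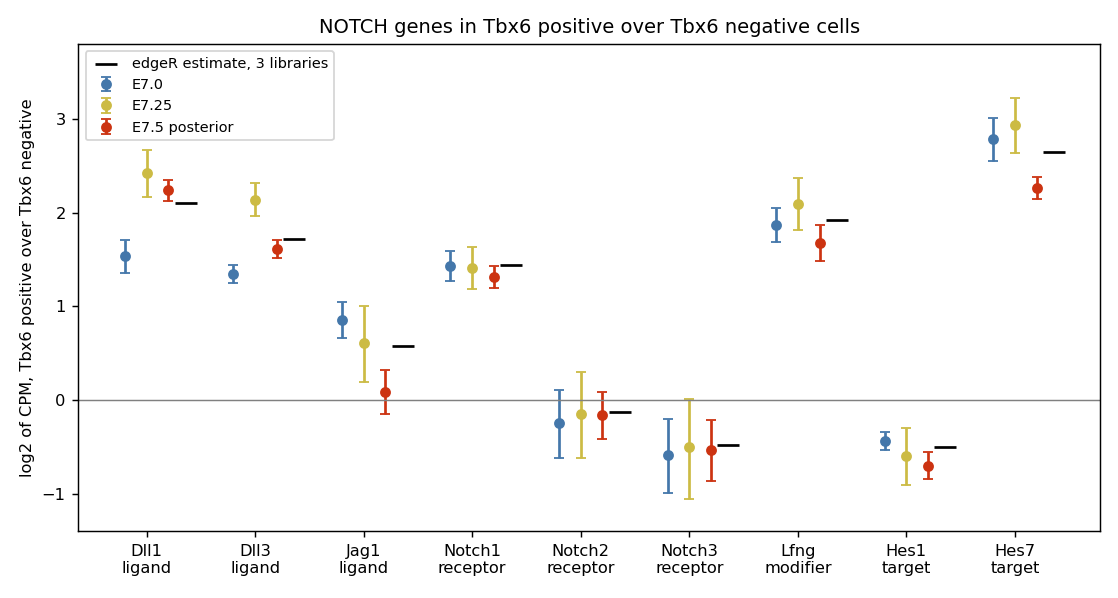
Log2 ratio of CPM in Tbx6 positive over Tbx6 negative cells (vertical axis) for each gene, as points for the 3 libraries with 95% counting intervals and a black dash for the edgeR estimate over the 3 libraries. Hes7, Dll1, Lfng, Dll3 and Notch1 lie above 1 in each library, Notch3 and Hes1 lie below 0, and Notch2 lies near 0.

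Hes7 had the largest change of the 9. Its level was 22.7, 34.5 and 71.9 CPM in Tbx6 positive cells in order of stage, and 3.30, 4.51 and 14.96 CPM in Tbx6 negative cells of the same libraries. Each Tbx6 positive level stood above every Tbx6 negative level. The edgeR quasi-likelihood log2 change was 2.64 ± 0.12 (SE), adjusted p = 2.25e-08, and it was higher in 3 of 3 libraries. Tbx6 positive cells held 50.6%, 52.4% and 53.0% of all Hes7 UMIs.

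Dll1, the activating ligand, was at 28.3, 39.6 and 76.8 CPM in Tbx6 positive cells of the 3 libraries, against 9.78, 7.39 and 16.3 CPM in Tbx6 negative cells. The 2 kinds of cells did not overlap across libraries. The edgeR log2 change was 2.11 ± 0.13 (SE), with an adjusted p of 2.07e-07. The separate ratios were 1.53, 2.42 and 2.24, and the E7.0 interval of 1.36 to 1.70 lay below the other intervals.

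Dll3 was at 88.0, 73.4 and 88.6 CPM in Tbx6 positive cells and at 34.6, 16.7 and 28.9 CPM in Tbx6 negative cells. Its level was thus lowest at E7.25 in both kinds of cells. In Tbx6 positive cells the E7.25 interval, 66.7 to 80.6 CPM, lay below those of E7.0 (83.1 to 93.0) and E7.5 posterior (84.1 to 93.2). The edgeR log2 change was 1.72 ± 0.11 (SE), adjusted p = 3.41e-07.

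Jag1, the third ligand, was at 20.9, 10.5 and 11.7 CPM in Tbx6 positive cells and at 11.5, 6.86 and 11.0 CPM in Tbx6 negative cells, so the 2 kinds of cells overlapped across libraries. Its separate log2 ratios were 0.86 (0.67 to 1.04) at E7.0, 0.61 (0.19 to 1.01) at E7.25 and 0.09 (-0.14 to 0.32) at E7.5 posterior. The edgeR log2 change was 0.58 ± 0.14 (SE), adjusted p = 0.00954. That call was lost without the E7.0 library, at a log2 change of 0.34 and an adjusted p of 0.143 in edgeR.

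Lfng, the glycosyltransferase that tunes which ligands a receptor answers to, was at 27.5, 28.3 and 23.7 CPM in Tbx6 positive cells, against 7.55, 6.62 and 7.44 CPM in Tbx6 negative cells. Within each kind of cell its level was much the same in the 3 libraries. The edgeR log2 change was 1.92 ± 0.10 (SE), adjusted p = 5.71e-08.

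Of the receptors, Notch1 was at 30.9, 37.8 and 56.4 CPM in Tbx6 positive cells, against 11.5, 14.2 and 22.7 CPM in Tbx6 negative cells. The edgeR log2 change was 1.44 ± 0.07 (SE), adjusted p = 3.45e-08, and its separate ratios of 1.43, 1.41 and 1.31 had overlapping intervals. Notch2 was at 5.19, 7.66 and 9.65 CPM in Tbx6 positive cells and at 6.16, 8.45 and 10.8 CPM in Tbx6 negative cells. Its edgeR log2 change was -0.12 ± 0.11 (SE), adjusted p = 0.472, and each of its 3 separate intervals included 0. Notch3 was at 4.20, 5.66 and 5.52 CPM in Tbx6 positive cells and at 6.29, 7.99 and 7.97 CPM in Tbx6 negative cells, with all levels of the first kind below all of the second. Its edgeR log2 change was -0.48 ± 0.12 (SE), adjusted p = 0.0143, and the call was lost without the E7.0 library (adjusted p = 0.0781), without the E7.5 posterior library (0.0889) and in DESeq2 (0.121).

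Hes1, the other target, was lower in Tbx6 positive cells, at 70.9, 16.5 and 27.0 CPM, against 95.9, 24.9 and 43.8 CPM in Tbx6 negative cells of the same libraries. It was lower within each library, while the spread between libraries was wider than that difference. The edgeR log2 change was -0.50 ± 0.07 (SE), adjusted p = 2.96e-04. The 2 target genes thus moved in opposite directions between the same cells.

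When only cells of mesoderm-like classes were compared, the log2 changes were smaller for all 6 genes that had risen, and Jag1 was not called. In edgeR, the log2 change was 1.98 for Hes7 (adjusted p = 1.45e-05), 0.88 for Dll1 (adjusted p = 0.00514) and 0.89 for Lfng (adjusted p = 6.66e-04). It was 0.56 for Notch1 (adjusted p = 8.56e-04), 0.55 for Dll3 (adjusted p = 0.0168) and -0.09 for Jag1 (adjusted p = 0.843). Hes1 was lower by more than among all cells, at -0.85 (adjusted p = 5.59e-04), and Notch3 was at -0.67 (adjusted p = 0.0314).

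**Figure D3:**
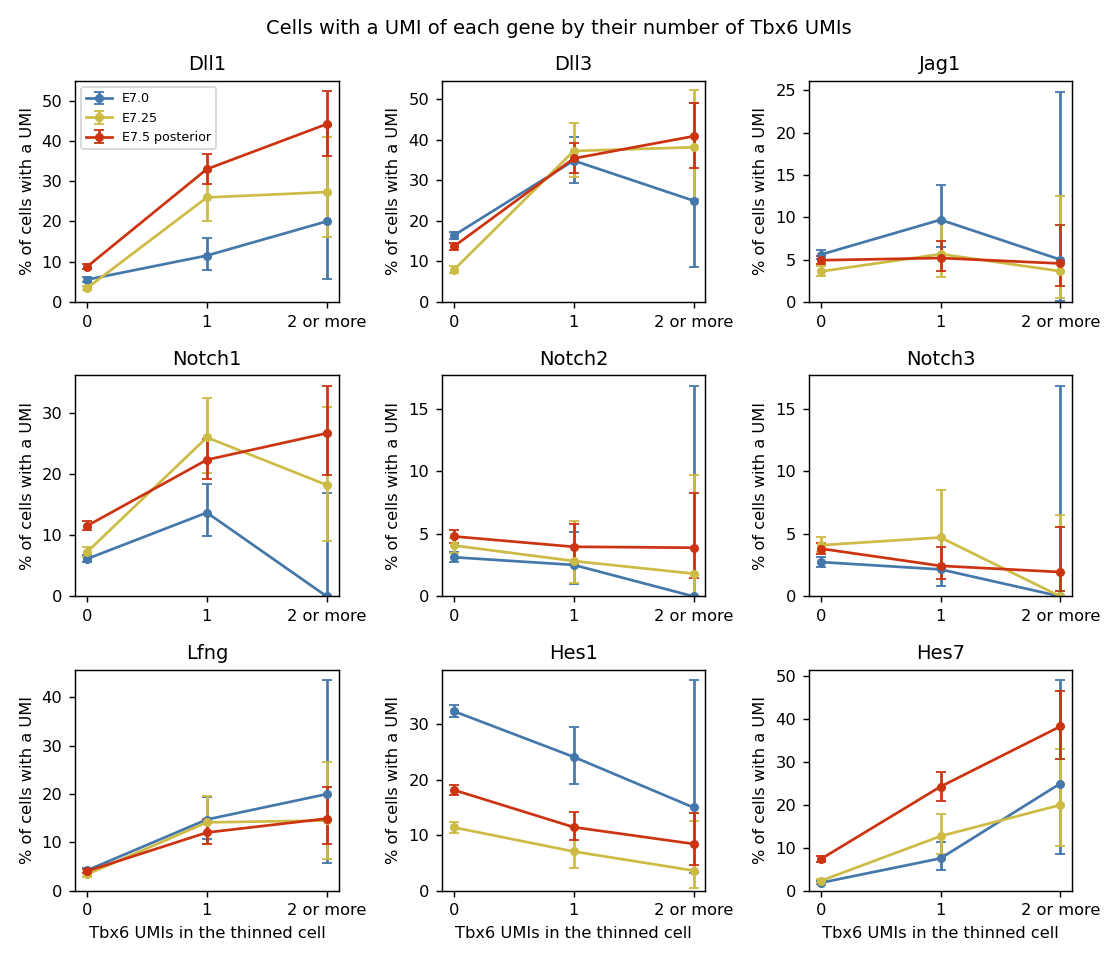
Percent of cells with at least 1 UMI of each gene (vertical axis, from 0) against the number of Tbx6 UMIs in the cell (0, 1, or 2 or more), after thinning to 5000 UMIs, in the 3 libraries. Error bars are exact 95% Clopper-Pearson intervals. At E7.5 posterior the Hes7 share is 7.38%, 24.3% and 38.3% from left to right and the Hes1 share 18.1%, 11.5% and 8.44%, and the last point of E7.0 holds only 20 cells.

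In each library the point values of the Hes7, Dll1 and Hes1 shares were ordered by the number of Tbx6 UMIs in a cell. At E7.5 posterior, Hes7 UMIs were in 7.38%, 24.3% and 38.3% of cells with 0, 1, and 2 or more Tbx6 UMIs, and Dll1 UMIs in 8.75%, 33.0% and 44.2%. Hes1 UMIs were in 18.1%, 11.5% and 8.44% of the same cells. The Hes1 intervals of the last pair overlapped, at 9.11% to 14.1% and 4.57% to 14.0%. Those of Dll1 overlapped too, at 29.4% to 36.7% and 36.2% to 52.4%, while those of Hes7 did not. At E7.0 and E7.25 the intervals of the last pair overlapped for each of these genes. At E7.25, Dll1 was at 25.9% (20.2% to 32.4%) and 27.3% (16.1% to 41.0%) there. At E7.0 the class of 2 or more Tbx6 UMIs held 20 cells, and its intervals are wide. Over all thinned cells, Hes7 UMIs were in 8.72%, 14.2% and 26.9% of Tbx6 positive cells and in 1.86%, 2.31% and 7.38% of Tbx6 negative cells. Unthinned, Hes7 UMIs were in 18.3%, 26.2% and 40.4% of Tbx6 positive cells in order of stage and in 2.94%, 3.39% and 10.2% of Tbx6 negative cells.

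Ligand and receptor RNA were found together in a larger share of Tbx6 positive than of Tbx6 negative cells in each library. After thinning, a UMI of any of the 3 ligand genes was in 47.3%, 53.6% and 59.0% of Tbx6 positive cells and in 23.3%, 13.0% and 22.6% of Tbx6 negative cells in order of stage. This ligand share includes Dll3, which acts as an inhibitor. Dll3 without Dll1 was in 30.9%, 24.3% and 21.8% of Tbx6 positive cells and in 14.1%, 6.81% and 10.6% of Tbx6 negative cells. A UMI of any of the 3 receptor genes was in 16.8%, 28.5% and 27.8% of Tbx6 positive cells and in 11.6%, 14.6% and 18.9% of Tbx6 negative cells. Both a ligand and a receptor were in 8.39%, 18.0% and 17.6% of Tbx6 positive cells and in 3.54%, 2.76% and 6.21% of Tbx6 negative cells. Since the ligand and the receptor share were each larger in Tbx6 positive cells, a larger joint share would arise without any further link. Joint presence beyond the product of these shares was not tested. Cells with a receptor and no ligand made up 8.39%, 10.5% and 10.3% of Tbx6 positive cells and 8.10%, 11.9% and 12.7% of Tbx6 negative cells. Visceral endoderm-like cells held both in 0.162%, 1.29% and 0.984%. Unthinned, both were found in 40.4%, 30.8% and 40.9% of Tbx6 positive cells and in 12.0%, 5.81% and 12.6% of Tbx6 negative cells. Given these sparse counts, a cell with no UMI may still express the gene.

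The 2 Delta genes were also compared cell by cell. Dll1 and Dll3 UMIs were both found in 173, 84 and 331 cells in order of stage, where the product of their shares gives 72.9, 21.3 and 142. Among Tbx6 positive cells alone, the counts were 10, 35 and 119, against 12.3, 26.2 and 104 from that product. Hes1 and Hes7 UMIs were both found in 24, 10 and 63 cells, against 50.2, 15.6 and 126. Within Tbx6 positive cells of E7.5 posterior, both targets were in 14 cells against 23.7. These counts are descriptions over cells of 1 library, and no test was made of them.

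By cell class, the 9 genes fell into patterns that differed in where the highest level lay. The clusters were built without these genes and Tbx6. In the main clusters, Dll1, Dll3, Lfng and Notch1 were highest in mesoderm-like cells in each library. Jag1 was highest in mesoderm-like and definitive endoderm-like cells, and Hes1 in definitive endoderm-like cells. With libraries clustered apart, Dll1 at E7.5 posterior was 89.1 CPM in caudal epiblast-like and 87.6 CPM in paraxial mesoderm-like cells. At resolution 2, an unnamed class of E7.25 held the most Dll1 and Lfng, at 41.1 and 25.7 CPM.

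**Figure D4:**
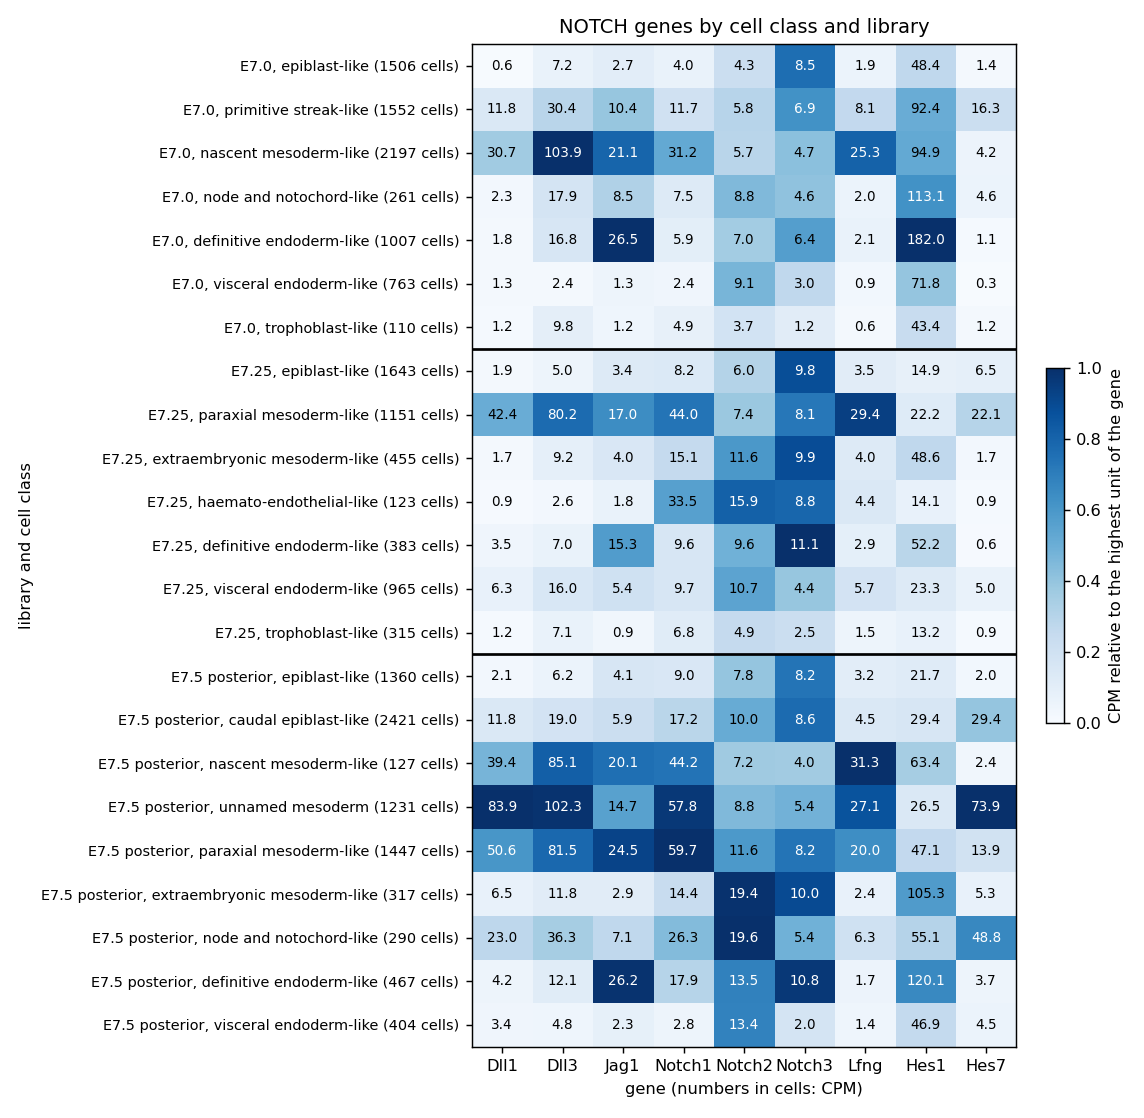
CPM of the 9 genes (columns) in each cell class of 100 or more cells (rows), with the 3 libraries stacked from E7.0 to E7.5 posterior and separated by lines. Colour shows the level relative to the highest row of the same gene, and the printed values are CPM. Dll1, Dll3, Notch1 and Lfng are darkest in mesoderm rows, Hes7 in the unnamed mesoderm of E7.5 posterior at 73.9 CPM, and Hes1 in definitive endoderm-like cells of E7.0 at 182 CPM.

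Dll1 was at 30.7 CPM in nascent mesoderm-like cells of E7.0, and at 42.4 and 50.6 CPM in paraxial mesoderm-like cells of the later libraries. In the E7.5 posterior mesoderm cluster led by Aldh1a2, Hoxb1 and T it reached 83.9 CPM. In epiblast-like cells it was at 0.634, 1.93 and 2.10 CPM. Dll3 was at 104, 80.2 and 81.5 CPM in the same mesoderm classes, against 7.199, 5.03 and 6.25 CPM in epiblast-like cells. Lfng was at 25.3, 29.4 and 19.97 CPM in those mesoderm classes. In each library these genes were lower in the epiblast-like cells than in these mesoderm classes. In the main clusters they were low in extraembryonic mesoderm-like cells of E7.25 and E7.5 posterior too. Dll1 was at 1.73 and 6.47 CPM there, Dll3 at 9.17 and 11.8 CPM and Lfng at 3.97 and 2.35 CPM. The Dll3 level of that class depended on the clustering. At resolution 2 it was 23.8 and 11.5 CPM, with predicted doublets removed 23.0 and 7.55 CPM, and with libraries clustered apart 7.61 and 24.8 CPM. With libraries clustered apart, 470 such cells of E7.0 held 49.3 CPM of Dll3 and 14.6 CPM of Dll1. At E7.25 the extraembryonic mesoderm-like class took in a deep cluster of 145 cells at resolution 2, and of 93 cells with predicted doublets removed. Their median UMI counts were 2.42 and 3.29 times the library median. Tbx6 in the class was then 13.5 and 13.0 CPM, against 4.46 CPM in the main clusters.

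Notch1 was at 31.2, 44.0 and 59.7 CPM in the same mesoderm classes, and at 33.5 CPM in the 123 haemato-endothelial-like cells of E7.25. In those cells Dll1 was at 0.883 CPM and Dll3 at 2.65 CPM, so both Delta genes were low in cells where Notch1 was high. Notch2 had no single top class. At E7.25 it was at 15.9 CPM (9.42 to 25.1) in haemato-endothelial-like cells, from 18 UMIs, and at 11.6 CPM (8.56 to 15.5) in extraembryonic mesoderm-like cells. At E7.5 posterior it was at 19.6 CPM (14.4 to 26.1) in node-like cells and at 19.4 CPM (15.01 to 24.7) in extraembryonic mesoderm-like cells. Notch3 had its top levels in epiblast-like cells at E7.0, at 8.47 CPM, and in definitive endoderm-like cells of both later libraries, at 11.1 and 10.8 CPM. In each library the top class overlapped the next in its Notch3 interval.

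Jag1 was at 26.5, 15.3 and 26.2 CPM in definitive endoderm-like cells in order of stage, and at 21.1, 17.04 and 24.5 CPM in the mesoderm classes named above. It was at 2.72, 3.44 and 4.14 CPM in epiblast-like cells. The class with the next highest Hes1 was node-like at E7.0, at 113 CPM, and extraembryonic mesoderm-like in both later libraries, at 48.6 and 105 CPM.

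Hes7 by class depended on the clustering. At E7.0 it was at 16.3 CPM in streak-like cells and at 4.24 CPM in nascent mesoderm-like cells. At resolution 2 the order turned, with 4.43 CPM in streak-like cells and 17.2 CPM in nascent mesoderm-like cells, so no order of these classes is given for E7.0. With the libraries clustered apart it was at 40.4 CPM in 282 streak-like cells and at 17.3 CPM in nascent mesoderm-like cells. At E7.25 it was at 22.1 CPM in paraxial mesoderm-like cells. At E7.5 posterior it was at 73.9 CPM in the mesoderm cluster led by Aldh1a2, Hoxb1 and T, at 48.8 CPM in node-like cells and at 29.4 CPM in caudal epiblast-like cells. In paraxial mesoderm-like cells of that library it was lower, at 13.9 CPM. For its caudal epiblast-like cells, Hes7 was at 55.6 CPM at resolution 2, 58.0 CPM with predicted doublets removed and 147 CPM with libraries clustered apart. Node-like cells held 43.6, 49.1 and 54.4 CPM in the same clusterings, and paraxial mesoderm-like cells 16.7, 41.1 and 43.3 CPM. No order of node-like and caudal epiblast-like cells is thus given for E7.5 posterior. With the libraries clustered apart, the level in paraxial mesoderm-like cells of E7.25 was 3.90 CPM.

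When each library was clustered by itself, the cluster with the most Hes7 and the cluster with the most Jag1 were different ones in each library, while some clusters held both genes. At E7.5 posterior, Hes7 was at 164 CPM (150 to 178) in 355 cells of a caudal epiblast-like cluster led by Cdx1, Gal and Aldh1a2, and at 66.8 CPM (61.2 to 72.7) in 791 paraxial mesoderm-like cells led by Aldh1a2, Pcdh19 and Rspo3. It was at 31.6 CPM (27.0 to 36.7) in 510 nascent mesoderm-like cells led by Lefty2, and at 3.63 CPM (2.11 to 5.81) in 494 paraxial mesoderm-like cells led by Alx1 and Tcf15. Jag1 in the same clusters was at 7.97, 9.84, 25.03 and 49.3 CPM, so the nascent mesoderm-like cluster held both Hes7 and Jag1. Dll1 stayed above 30 CPM in all of these 4 clusters, at 102, 119, 60.9 and 34.6 CPM. The cluster with the least Hes7 among these 4 thus still held Dll1 UMIs.

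The mesoderm-like clusters of the other libraries also differed in Hes7 and Jag1. At E7.25, Hes7 was at 49.6 CPM and Jag1 at 9.09 CPM in 475 nascent mesoderm-like cells, and at 3.90 and 33.0 CPM in 402 paraxial mesoderm-like cells. At E7.0, Hes7 was at 17.3 CPM and Jag1 at 19.5 CPM in 1209 nascent mesoderm-like cells, and at 1.32 and 30.6 CPM in 946 cells of an unnamed mesoderm cluster led by Myl7 and Foxc2. Streak-like cells of E7.0 had Hes7 at 40.4 CPM and Jag1 at 12.1 CPM. Dll3 was at 101 and 124 CPM in the 2 mesoderm clusters of E7.0, against 39.6 CPM in those streak-like cells.

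**Figure D5:**
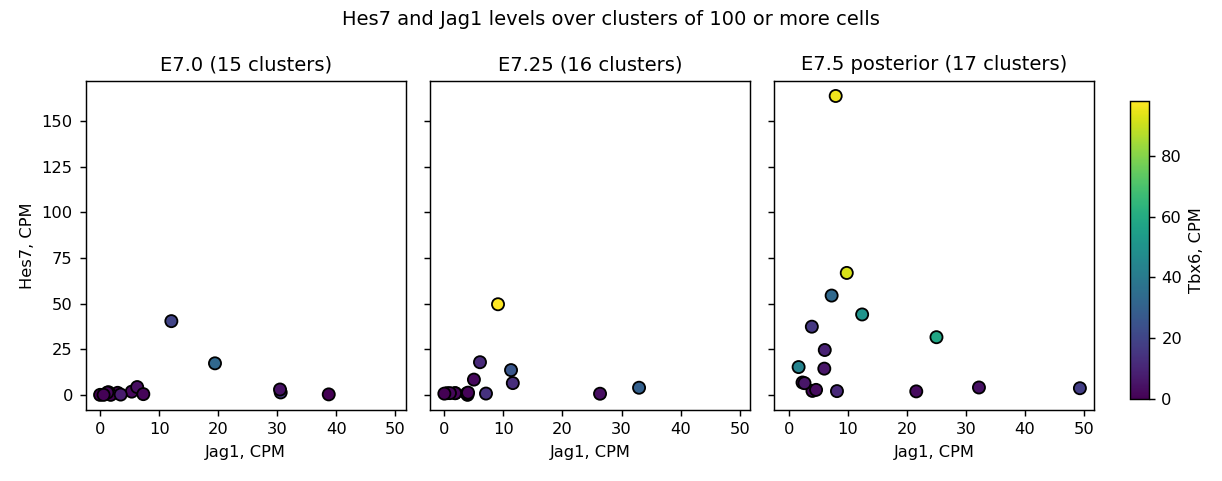
Hes7 level (vertical axis, CPM) against Jag1 level (horizontal axis, CPM) in clusters of 100 or more cells, each library clustered by itself, with 1 point per cluster coloured by its Tbx6 level in CPM. Clusters of 1 library share a library and its depth. The point with the most Hes7, at 164 CPM, has 7.97 CPM of Jag1, and the point with the most Jag1, at 49.3 CPM, has 3.63 CPM of Hes7.

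Over the 25 units of class and library with 100 or more cells, the genes whose log2(CPM + 5) ran most like each member were named by Pearson r among 7566 genes, as a description over units that share 3 libraries. For Dll1 these were Tbx6 (r = 0.94), Dll3 (0.94) and Rimbp2 (0.93), and for Dll3 they were Dll1 (0.94), Pcdh8 (0.93) and Chst7 (0.93). For Lfng they were Pcdh8 (0.96), Rimbp2 (0.94) and Mesp2 (0.93), where Mesp2 is a segmentation factor of the anterior presomitic mesoderm. Hes7 ran most like Gbx2 (0.92), Tmem145 (0.91) and Alcam (0.88), and Jag1 like Sema6d (0.92), Tcf7l2 (0.88) and Cdh2 (0.84).

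Notch1 ran most like Col13a1 (r = 0.91), Itpr1 (0.90) and Tenm4 (0.89), Notch2 like Serinc3 (0.88), Cep120 (0.87) and Herc1 (0.87), and Notch3 like Zfp644 (0.91), Setd5 (0.89) and Zmym4 (0.88). Hes1 had the weakest nearest genes, Ufc1 (0.80), Dapk2 (0.79) and Svbp (0.78). Among the members themselves, Dll1 with Lfng gave r = 0.91 and Dll3 with Lfng 0.90, while Jag1 with Hes7 gave 0.27 and Hes1 with Hes7 -0.15.

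The other genes of the pathway were read from the same edgeR test of Tbx6 positive against Tbx6 negative cells. These counts stand against a background of 8.89% of all tested genes higher and 13.9% lower, and a median log2 change of 0.02. Of the other ligand genes, 2 of 4 were tested, and Dlk1, which encodes a Delta-like protein without the usual receptor-binding domain, fell by 1.23 on the log2 scale (adjusted p = 1.15e-04). The receptor gene Notch4 was at 0.08 (adjusted p = 0.808). Of the 4 glycosyltransferase and O-fucose genes, Mfng, a relative of Lfng, fell by 1.56 (adjusted p = 0.00469), at under 3 CPM in both kinds of cells, and 3 were not called.

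Of 12 tested genes of ligand endocytosis and receptor cleavage, 3 rose and 1 fell. Aph1b and Aph1c, close copies that encode subunits of the receptor-cutting gamma-secretase, rose by 0.97 and 0.87 in edgeR (adjusted p = 1.41e-04 and 2.95e-04). Reads shared between such copies may be split between them by the counting. Mib1, the ubiquitin ligase for ligand uptake, rose by 0.25 (adjusted p = 0.0445), and the gamma-secretase gene Psen2 fell by 0.73 (adjusted p = 0.00123). Of 11 nuclear genes, the cofactor Snw1 rose by 0.17 and the acetyltransferase gene Kat2b fell by 1.51, and 9 were not called. These counts lie near the 8.89% and 13.9% of all genes. Kat2b was at only 0.285, 0.499 and 0.300 CPM in Tbx6 positive cells in order of stage.

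Of 5 tested other Hes and Hey genes, Hes6 fell by 0.29 (adjusted p = 0.0235 in edgeR) and 4 were not called. Of 10 feedback and inhibitor genes, the Deltex genes Dtx4 and Dtx1 fell by 1.67 and 1.23 (adjusted p = 7.22e-04 and 1.19e-04 in edgeR), and 8 were not called. These 2 of 10 lie near the 13.9% of all genes that fell, and Dtx4 was at only 0.213, 1.83 and 1.02 CPM in Tbx6 positive cells. Within mesoderm-like classes the changes of Psen2, Hes6 and Dtx1 had the opposite sign and were not called.

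Lists of neighbouring pathways, also chosen with earlier results known, were counted in the same way. Of 16 clock genes of the WNT and FGF pathways, 13 rose and 1 fell, with a median log2 change of 0.63, against 8.89% higher, 13.9% lower and a median of 0.02 over all genes tested. They included Lef1, a WNT effector, with 166, 173 and 172 CPM in Tbx6 positive cells in order of stage, against 66.2, 51.5 and 71.6 CPM in Tbx6 negative cells. Its edgeR log2 change was 1.502 (adjusted p = 1.28e-07). Snai1, which drives the loss of epithelial junctions, rose by 1.18, Dact1 by 1.17, and Bcl9l fell by 0.51.

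Of 14 tested presomitic mesoderm regulators other than Tbx6, 9 rose and 1 fell. Msgn1, a paraxial mesoderm factor downstream of WNT, rose by 3.17 in edgeR (adjusted p = 3.26e-05), although its level was only 0.142, 1.17 and 4.08 CPM in Tbx6 positive cells and 0.053, 0.096 and 0.421 CPM in Tbx6 negative cells. T, the streak factor Brachyury, rose by 2.04 and Wnt3a by 1.88, and the inhibitor Cer1 fell by 1.73. Of 9 tested somite and boundary genes, 6 rose, among them Aldh1a2, the retinoic acid enzyme, by 2.66, Foxc1 by 1.88 and Pcdh8 by 1.58. The other 3 were not called. Aldh1a2 was at 0.640, 19.6 and 69.2 CPM in Tbx6 positive cells and at 0.255, 2.90 and 11.1 CPM in Tbx6 negative cells.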

How the data were processed

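Single cells of 3 libraries, 1 per group, were made with the 10x Genomics 3′ protocol. The deposited values are raw counts of UMIs per gene and barcode from Cell Ranger 6.0.1, per the file headers, not scaled. The genome build of the counting is not given in the sources used here. Gene positions are from GENCODE M21 (GRCm38), in which 32158 of 32285 gene identifiers were found, and promoters from RefSeq.

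Libraries were clustered together with the Leiden method (leidenalg 0.10.2, 2000 variable genes without the 9 members and Tbx6, 30 principal components, 15 neighbours, resolution 1) and clusters named from fixed markers. A cluster with under 3 markers or with more markers of another class than of its own among its top 10 genes was left unnamed. Predicted doublets were marked at 0.8% per 1000 cells and kept in the main values. Shares have Clopper-Pearson and ratios conditional binomial intervals at 95%. Tbx6 positive and negative sums were compared with edgeR 4.0.16 (quasi-likelihood, TMM, filterByExpr, library as a block, Benjamini-Hochberg adjustment), and DESeq2 1.42.0 was an alternative. The edgeR step was tested on simulated data. Tbx6, which defines the groups, is not counted among the tested genes. The genes named are the 9 members, the genes with the 3 largest called changes in each direction of a list, and the 3 genes most like each member. Members and lists were chosen with earlier results of these data known.

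The kept cells held 108350108, 47672673 and 87940979 UMIs in order of stage.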

Additional observations from a re-analysis of the deposited data

Results flagged for a closer look

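Barcodes that did not pass the cell filters were used in no comparison and still held UMIs of the 9 genes. The 2291 barcodes left out at E7.0 held 191.7 CPM of the 9 genes together, against 201 CPM in the kept cells. The 979 left out at E7.25 held 104.8 CPM, against 117 CPM in the kept cells. The 3030 left out at E7.5 posterior held 370.6 CPM, against 203 CPM in the kept cells. The median detected genes of the left-out barcodes were 535, 501 and 557, and their median mitochondrial share was 3.88%, 11.1% and 16.9%, in order of stage.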

How the results depend on the processing

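Hes7, Dll1, Lfng, Dll3 and Notch1 were called higher in Tbx6 positive cells under each of the 13 alternatives that kept the library block. Without the replicate block, 67 genes rose and 88 fell in edgeR, in place of 1259 and 1963, and 2 members, Lfng and Dll3, rose and 0 fell, with adjusted p = 0.907 for Hes1 and 0.288 for Notch3. Only mesoderm-like classes gave 319 higher and 354 lower genes, thinning to 5000 UMIs 722 and 1039, and DESeq2 1308 lower. Thinning and DESeq2 each left 1 member called lower, Hes1. Leaving out each library gave 901 to 1349 higher and 1535 to 1900 lower genes, 5 to 6 members higher and 1 to 2 lower. Jag1 lost its call at 2 Tbx6 UMIs or more (adjusted p = 0.0990 in edgeR) and on thinning (0.171). In mesoderm-like classes alone the log2 change was -0.089 for Jag1, 0.12 for Psen2, 0.20 for Hes6 and 0.71 for Dtx1, each reversed and not called. At a fold of 1.5, 2 members were lower for E7.25 over E7.0, and 5 were higher for E7.5 posterior over E7.25. The causes were not tested. At E7.0, Hes7 was higher in streak-like than in nascent mesoderm-like cells, but at resolution 2 this order was reversed, at 4.43 CPM in streak-like and 17.2 CPM in nascent mesoderm-like cells. With libraries clustered apart it was 40.4 and 17.3 CPM in the same classes, and in paraxial mesoderm-like cells of E7.25 it was 3.90 CPM with libraries clustered apart. No paired analysis beyond the library block was possible because each group has 1 library. Depth limits single cells: most cells hold no UMI of most members.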

Other observations

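A visceral endoderm-like cluster of E7.25 with 247 cells held 33.5 CPM of Dll3 and 9.67 CPM of Hes7, against 0.520 CPM of Dll3 and 0.867 CPM of Hes7 in 707 other visceral endoderm-like cells of that library. The cluster, 309 cells over all libraries, had a relative depth of 1.91, its cells' median UMI count over that of their own library. These cells are among the visceral endoderm-like cells used above as background. With predicted doublets removed before clustering, no such deep visceral endoderm-like cluster was left. The 717 visceral endoderm-like cells of E7.25 then held 0.518 CPM of Dll3 and 0.863 CPM of Hes7. Deep cells of E7.25 remained, in a cluster of 93 cells at a relative depth of 3.29 that was named extraembryonic mesoderm-like. Whether these came from the 247 cells was not tested.

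Between libraries, of 11 nuclear NOTCH genes, 7 reached 20 CPM, and each stayed within 2-fold in all 3 comparisons of libraries. Of 14 WNT and FGF clock genes compared for E7.25 over E7.0, 1 was at least 2-fold higher and 2 at least 2-fold lower, against 2.78% higher and 1.52% lower of 5585 genes, and all 14 compared for E7.5 posterior over E7.0 stayed within 2-fold.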
